A study of Mus musculus with 6 samples.

Results

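Foxo1, Foxo3 and Foxo4 encode FoxO transcription factors, and Irs1, Irs2, Insr, Pik3ip1, Txnip, Btg1 and Ccng2 belong to the insulin pathway that controls these factors or to the genes that they are known to control. The expression of these 10 genes, of 19938 genes measured, was compared between enterospheres under differentiation and under proliferation. The genes were chosen by name as a group related to FoxO and to quiescence, and each was represented by the transcript cluster that carried its symbol alone and had the highest mean over all arrays. Enterospheres are free-floating spheroids from the dissociated muscle layers of the gut of newborn (P0) C57BL/6 mice, and they hold enteric neural progenitors together with other cells of the gut wall. In the differentiation group (3 arrays) the spheres spent 9 days in proliferation medium and then 2 days in differentiation medium, which had ascorbic acid-2-phosphate and no EGF or FGF. In the proliferation group (3 arrays) they stayed for all 11 days in proliferation medium, to which EGF (10 ng/mL per the labels) and FGF (20 ng/mL) were added daily. The withdrawal of EGF and FGF and the addition of ascorbic acid-2-phosphate cannot be told apart. Both media held N2 supplement, of which insulin is a component, so that insulin was present in either group. The methods of the study give a higher concentration of EGF than the labels do. The labels give 3 mice per sample, whereas the methods describe independent experiments, in each of which fewer pups were used and came from a shared litter. In the methods picked spheres went into either medium, so that an experiment may have supplied arrays of both groups. Nothing in the labels ties a replicate number to an experiment. The groups were therefore compared as unpaired, and p-values measure the spread between these arrays.

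FoxO factors are controlled mainly by where they are in the cell. Insulin and growth factors activate phosphoinositide 3-kinase (PI3K) and the kinase AKT, which phosphorylates FoxO and keeps it in the cytoplasm. When this signal falls, FoxO enters the nucleus and can switch on genes that hold cells out of the cycle and genes, such as Irs2 and Insr, that make cells more responsive to insulin. An array measures mRNA and shows neither the location nor the phosphorylation of FoxO.

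All 6 arrays gave log2 values for 35556 transcript clusters. Correlations between arrays were 0.988 to 0.995 within and 0.983 to 0.989 across the groups. Of the 19938 genes 1179 (5.91%) passed limma's test at an adjusted p under 0.05, 587 of them (2.94%) higher and 592 (2.97%) lower in differentiation. Cell type markers moved with the groups. The summed level of a marker list is the log2 of its summed unlogged values, in which the brightest markers weigh most. For 10 markers of enteric progenitors and glia it was 14.58 to 14.61 in differentiation and 14.14 to 14.39 in proliferation. For 8 smooth muscle markers it was 11.18 to 11.31 in differentiation and 10.93 to 11.06 in proliferation. For 3 markers of interstitial cells of Cajal it was 12.06 to 12.17 in differentiation and 12.48 to 12.78 in proliferation. The progenitor and glial sum and the smooth muscle sum hold genes that passed in opposite directions. Of the progenitor and glial markers 3 rose and S100b fell (log2 difference -0.74), and of the smooth muscle markers 4 rose and Smtn fell (-0.83). Of the 3 markers of interstitial cells of Cajal only Ano1 passed (-1.43). Kit (-0.85, adjusted p = 0.0501 from limma) and Etv1 (-0.21, adjusted p = 0.264) did not. The summed levels of 9 markers of neurons, 7 of fibroblasts and 4 of mesothelium overlapped between the groups, although Tubb3 of neurons and Dpt of fibroblasts rose by 0.98 and 1.20. The 7 macrophage markers all lay below the median cluster mean of 6.15, as did 6 of 7 epithelial and 5 of 7 endothelial markers. Of 12 genes of dividing cells, several of which the study itself lists, 11 fell, with a summed level of 12.25 to 12.43 in differentiation and 13.46 to 14.13 in proliferation. None of these 11 passed with the methods' t-test after Benjamini-Hochberg (adjusted p 0.057 to 0.0849), and 9 passed with limma without differentiation replicate 1. The part of these shifts in the values below was not tested, and in such bulk samples fewer cells of a type and less RNA per cell cannot be told apart.

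None of the 10 genes passed limma's test after adjustment over all clusters, where 5.91% of all genes did. Their log2 differences, differentiation minus proliferation, ran between -0.44 for Btg1 and 0.27 for Foxo4, and the adjusted p between 0.0571 and 0.866. The unadjusted p was under 0.05 in 8 of the 10, against 19.1% of all genes. In the same 8 the arrays of the groups did not overlap, which held for 27.5% of all genes (14.6% with differentiation higher and 12.9% with differentiation lower). These 8 divided evenly by direction: Foxo1, Foxo4, Insr and Pik3ip1 lay higher in all differentiation arrays, and Irs1, Irs2, Btg1 and Ccng2 lay lower. Foxo3 and Txnip overlapped. The median of the 10 differences was -0.06, beside 0.02 over all genes, and the median size irrespective of sign was 0.24, beside 0.11. As the genes were chosen with earlier results of these data known, these shares carry no test.

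**Figure D1:**
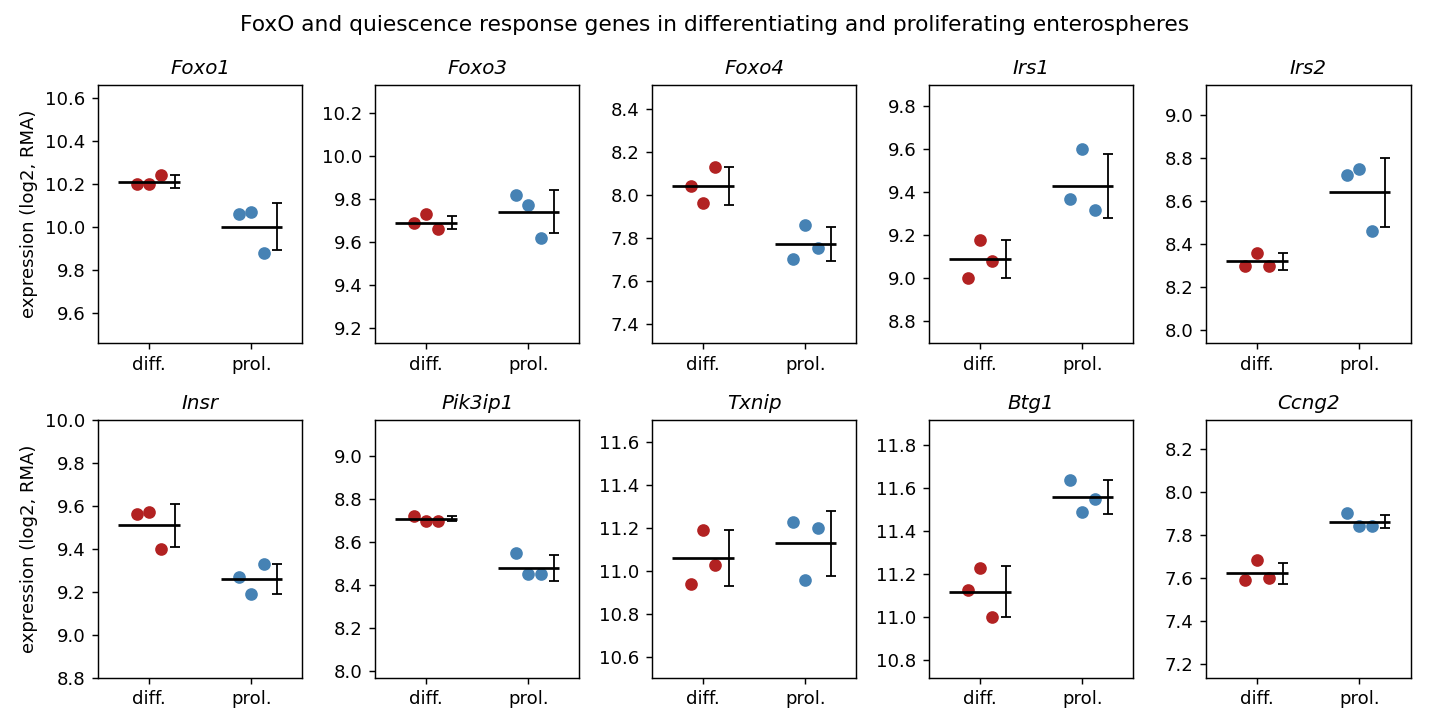
Expression of the 10 genes on the log2 RMA scale, with 1 panel per gene, differentiation left and proliferation right. Points are arrays (3 per group), horizontal lines are group means, and bars are the SD; every panel spans the same range of log2 units, and the groups overlap in Foxo3 and Txnip alone.

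The FoxO factors bind related sites in DNA and act on overlapping targets. Foxo1 (transcript cluster 10491962) had log2 values of 10.20, 10.20 and 10.24 in differentiation and of 10.06, 10.07 and 9.88 in proliferation. The lowest differentiation array lay 0.13 above the highest proliferation array, and the proliferation group spread more because its array of replicate 3 was low. The means were 10.21 ± 0.03 in differentiation and 10.00 ± 0.11 in proliferation (SD, n = 3), a log2 difference of 0.21 with an adjusted p of 0.308 from limma.

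Foxo4 (10601091), the FoxO gene on the X chromosome, had values of 8.04, 7.96 and 8.13 in differentiation and of 7.70, 7.86 and 7.75 in proliferation. The groups were set apart by 0.09 and had similar spreads. The log2 difference of 0.27 (95% interval 0.06 to 0.48) was the highest of the 10, a fold of 1.21, and did not pass (adjusted p = 0.19 from limma).

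Foxo3 (10368888), known for keeping stem cells of several tissues out of the cycle, had values of 9.69, 9.73 and 9.66 in differentiation and of 9.82, 9.77 and 9.62 in proliferation. The lowest array of all was a proliferation array, and the groups overlapped. The difference was -0.04 (95% interval -0.25 to 0.16, adjusted p = 0.866 from limma), which bounds a change of Foxo3 mRNA between 0.84-fold and 1.12-fold. Foxo6, the remaining FoxO gene and no member of the 10, also did not pass, so that 0 of 4 FoxO genes were called. Among all genes 5.91% were.

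The insulin receptor and its substrates stand at the top of the pathway. Insr, the receptor itself, had 2 clusters, and the brighter (10576692) read 9.56, 9.57 and 9.40 in differentiation and 9.27, 9.19 and 9.33 in proliferation. The groups came within 0.06 of each other, the narrowest gap of the 8 genes without overlap. Its log2 difference was 0.24 (95% interval 0.03 to 0.46, adjusted p = 0.241 from limma). The other cluster of Insr (10576696) read 9.21, 9.17 and 9.05 in differentiation and 9.06, 8.82 and 8.97 in proliferation. There the groups overlapped by 0.01, and the difference was 0.19 (adjusted p = 0.41), of the same sign.

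Irs1 (10356084) encodes a docking protein that carries the signal of the insulin and IGF1 receptors to PI3K, and it read 9.00, 9.18 and 9.08 in differentiation and 9.37, 9.60 and 9.32 in proliferation. The differentiation arrays were all lower, with a gap of 0.15. The difference was -0.35 (95% interval -0.60 to -0.10), a fold of 0.79, with an adjusted p of 0.15 from limma. A dim second cluster annotated to Irs1 (10347792), which lay below the median cluster mean, differed by 0.11 (adjusted p = 0.661) with overlapping groups.

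Irs2 (10576971), the other main substrate and a known FoxO target in mouse liver, read 8.30, 8.36 and 8.30 in differentiation and 8.72, 8.75 and 8.46 in proliferation. The differentiation arrays lay close together, and proliferation replicate 3 came within 0.10 of them. The difference of -0.32 (95% interval -0.56 to -0.08, adjusted p = 0.172 from limma) had the sign of that of Irs1 and the opposite sign to that of Insr. Without proliferation replicate 3 the difference of Irs2 was -0.42, with an adjusted p of 0.125.

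Pik3ip1 (10373740) encodes a membrane protein that binds PI3K and restrains it. It read 8.72, 8.70 and 8.70 in differentiation and 8.55, 8.45 and 8.45 in proliferation. No other gene of the 10 had a smaller spread within differentiation (SD 0.01), and the groups were 0.15 apart. The difference was 0.23 (95% interval 0.04 to 0.41, adjusted p = 0.206 from limma).

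Txnip, Btg1 and Ccng2 act further down. Txnip encodes an alpha-arrestin that binds thioredoxin and limits glucose uptake, Btg1 encodes an antiproliferative protein that recruits the CCR4-NOT deadenylase to mRNA, and Ccng2 encodes an unconventional cyclin found in cells that leave the cycle. The table of RefSeq promoters (GRCm38.p6, 250 bases before to 50 bases after a gene's start) held 8 of the 10 genes, all but Foxo4 and Insr. Of the 8 promoters, those of Btg1 and Txnip contained the forkhead core motif TGTTTAC, searched on both strands and found in 3.65% of all 32851 promoters of that length. They are printed as the promoters of the group that hold this motif, and neither gene passed the test. The Btg1 promoter lies at chr10:96616751-96617050 on the plus strand, with the motif starting at position -204 from the gene's start. The Txnip promoter lies at chr3:96557707-96558006 on the plus strand, with the motif on the opposite strand and its first base at position -121. Capitals mark the motif.
Btg1: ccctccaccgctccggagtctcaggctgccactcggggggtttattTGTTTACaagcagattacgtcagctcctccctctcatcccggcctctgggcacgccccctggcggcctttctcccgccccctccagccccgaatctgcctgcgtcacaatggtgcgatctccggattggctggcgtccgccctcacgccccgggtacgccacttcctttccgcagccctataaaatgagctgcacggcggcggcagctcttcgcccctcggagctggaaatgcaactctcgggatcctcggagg
Txnip: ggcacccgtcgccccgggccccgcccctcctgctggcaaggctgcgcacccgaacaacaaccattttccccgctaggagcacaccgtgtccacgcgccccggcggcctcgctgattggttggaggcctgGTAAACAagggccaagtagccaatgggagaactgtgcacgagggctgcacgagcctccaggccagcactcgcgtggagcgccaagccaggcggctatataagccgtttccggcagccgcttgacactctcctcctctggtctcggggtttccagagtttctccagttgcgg
The E-box CACGTG, a palindrome found in 7.15% of all promoters, occurred in those of Irs1 (position -115) and Irs2 (position -44). A match of letters is a description and not a binding site.

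Btg1 (10365971) came nearest to the threshold. It read 11.13, 11.23 and 11.00 in differentiation and 11.64, 11.49 and 11.55 in proliferation. The groups were 0.25 apart, the widest gap of the 10, with means of 11.12 ± 0.12 in differentiation and 11.56 ± 0.08 in proliferation (SD, n = 3). The log2 difference was -0.44 (standard error 0.09, 95% interval -0.66 to -0.21), a fold of 0.74, with an adjusted p of 0.0571 from limma. It passed with an adjusted p of 0.0218 over clusters with 1 symbol and of 0.023 over clusters at or above the median mean. Over all clusters it passed with limma-trend and robust estimation (0.0191) and after centring on array medians (0.0354). With the replicate number as a block it did not (0.154). It did not pass with any array left out (adjusted p 0.0852 to 0.212).

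Ccng2 (10523297) read 7.59, 7.68 and 7.60 in differentiation and 7.90, 7.84 and 7.84 in proliferation. The groups were 0.16 apart and each had a small spread. The difference was -0.24 (95% interval -0.42 to -0.06, adjusted p = 0.176 from limma). Of the G-type cyclins and their relative Ccni, a list of 3, Ccng1, which p53 induces, was the 1 that fell (log2 difference -0.55, adjusted p = 0.032 from limma). Over all genes 2.97% fell. The call of Ccng1 was kept without proliferation replicate 2 and was lost without any other single array (adjusted p up to 0.156) and with the replicate number as a block (adjusted p = 0.117).

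Txnip (10494428) read 10.94, 11.19 and 11.03 in differentiation and 11.23, 10.96 and 11.20 in proliferation. Each group held both high and low arrays, and they overlapped by 0.24. The difference was -0.08 (95% interval -0.34 to 0.19, adjusted p = 0.82 from limma), which bounds a change between 0.79-fold and 1.14-fold. Of 14 measured genes for alpha-arrestins, the thioredoxin system and other partners of Txnip, Txnip included, 0 passed, where 5.91% of all genes did. Arrdc4 among them had a difference of 0.45 (adjusted p = 0.142 from limma).

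**Figure D2:**
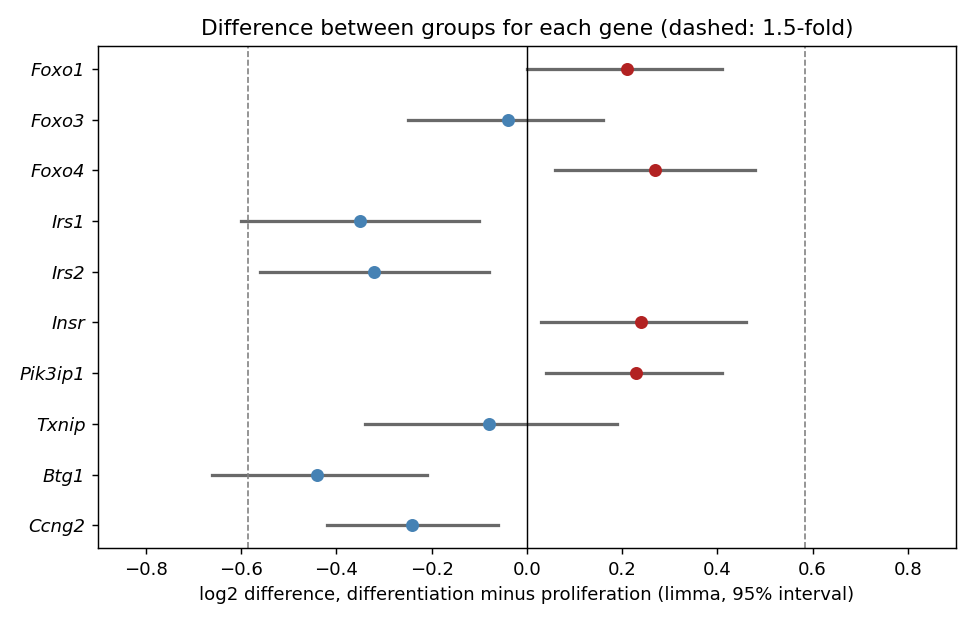
Log2 difference of each gene, differentiation minus proliferation, on the horizontal axis (points, red above and blue below 0) with its 95% interval from limma (lines), 3 arrays per group. Dashed lines mark 1.5-fold in either direction; the intervals of Irs1 and Btg1 reach past the left line and the other 8 stay inside.

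The precision of these comparisons set bounds on each gene. Standard errors of the 10 were between 0.08 and 0.11 on the log2 scale, where the median over all genes was 0.11. The 95% intervals, taken gene by gene, stayed within 1.5-fold in 8 of the 10 and within 2-fold in all 10. The intervals of Irs1 and Btg1 reached 0.66-fold and 0.63-fold. A called gene in this comparison had a median difference of 0.81 in size and a smallest of 0.35, and only 54 of the 1179 called genes differed by less than Btg1. The other 9 members differed by 0.35 or less, and a p above the threshold does not show that their expression was alike.

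The pathway between the receptor and FoxO was followed with lists. Among 13 measured genes of the insulin receptor, its relatives and adaptors, Insr, Irs1 and Irs2 included, 0 passed, where 5.91% of all genes did. Their median difference was 0.02, beside 0.02 over all genes. Of 25 genes of PI3K, AKT and mTOR, Pik3ip1 included, 2 fell, where 2.97% of all genes did, and 23 did not pass (median 0.02). They were Inpp4b, a phosphatase that removes PI3K products, with a log2 difference of -0.82 (adjusted p = 0.0127 from limma), and Pik3cg, the catalytic subunit p110 gamma known from white blood cells, with -0.75 (adjusted p = 0.0346). Both had cluster means below the median cluster mean of 6.15. The kinase gene Akt1 had a difference of 0.00 (adjusted p = 0.997) and Akt2 one of 0.09 (adjusted p = 0.71). Leaving out proliferation replicate 3, differentiation replicate 1 or differentiation replicate 2 left 0 of these 2 calls, and leaving out proliferation replicate 1 or differentiation replicate 3 left 1, that of Inpp4b. With the replicate number as a block neither passed (adjusted p = 0.0514 for Inpp4b and 0.102 for Pik3cg). The direction of the calls depended on the setting. Over clusters at or above the median mean, which leaves out both genes, 2 of 22 genes of the list were called, both higher, and with limma-trend, over clusters with 1 symbol or with clusters averaged per gene 2 were called higher and 2 lower.

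Of 18 genes for proteins that modify or hold FoxO, 1 passed, where 5.91% of all genes did. Skp2, a ubiquitin ligase subunit that targets FOXO1 and the inhibitor p27 in human cells and is itself a gene of cycling cells, fell with a log2 difference of -0.88 (adjusted p = 0.0111 from limma). It did not pass when proliferation replicate 3 or differentiation replicate 1 was left out (adjusted p up to 0.0695). The study lists Skp2 among its own cell cycle genes, chosen on these samples.

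Of 34 further genes known as FoxO targets in one tissue or another, 5 rose, 1 fell and 28 did not pass, with a median difference of 0.02. That is 5 of 34 higher where 2.94% of all genes were. As the list was chosen with earlier results of these data known, this share carries no test. Gadd45a, which acts in growth arrest and DNA repair, read 9.15, 9.12 and 9.18 in differentiation and 7.90, 7.47 and 7.77 in proliferation. All differentiation arrays lay above all proliferation arrays, with a log2 difference of 1.44 (adjusted p = 0.00327 from limma). Fbxo32, a ubiquitin ligase subunit called atrogin-1 in muscle, read 8.01, 8.10 and 8.00 in differentiation and 7.05, 7.03 and 7.00 in proliferation. Its arrays lay closely together within each group, and it rose by 1.01 (adjusted p = 0.00281). Gadd45b, a relative of Gadd45a, rose by 1.37 (adjusted p = 0.0308).

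Ppargc1a, a coactivator of mitochondrial genes, was the 1 target that fell, with 7.65, 8.06 and 7.76 in differentiation, 9.68, 8.93 and 9.64 in proliferation and a difference of -1.59 (adjusted p = 0.0128 from limma). Trib1 and Klf6, named here in view of their values, rose by 0.81 and 0.46 (adjusted p = 0.00957 and 0.0241). The cell cycle inhibitor Cdkn1b, a FoxO target tied to quiescence, had a difference of 0.01 (95% interval -0.25 to 0.27, adjusted p = 0.976), and Sesn1, Sesn3 and Bcl2l11 differed by -0.22, -0.07 and -0.15 and did not pass (adjusted p = 0.436, 0.836 and 0.632). Other uncalled targets differed in either direction. Named in view of their values, Nupr1, Bcl6 and Rbl2 differed by 0.50, 0.41 and 0.22 (adjusted p = 0.0671, 0.104 and 0.223) and Klf2 by -0.33 (adjusted p = 0.164). Gadd45a and Fbxo32 passed with each array left out. Leaving out proliferation replicate 3 left 2 of the list called, and leaving out differentiation replicate 1 left 3. Calls were lost for Gadd45b (without proliferation replicate 3 or any 1 differentiation array, adjusted p up to 0.127), Ppargc1a (without proliferation replicate 3 or differentiation replicate 1, up to 0.073), Trib1 (without proliferation replicate 3, up to 0.057) and Klf6 (without any array, 0.0535 to 0.1). With the replicate number as a block only Gadd45a and Fbxo32 of the list passed (adjusted p = 0.0167 and 0.0199), and the calls of Gadd45b, Klf6, Ppargc1a and Trib1 were lost (0.0959, 0.1, 0.0621 and 0.0503).

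Genes of cell cycle exit formed the last lists. Of 15 measured genes of the BTG and TOB family and of the CCR4-NOT complex, Btg1 included, 0 passed (median -0.14). Among all genes 5.91% passed. Tob1 of this list had a difference of -0.45 (adjusted p = 0.104 from limma) and Btg2 one of 0.06 (adjusted p = 0.937). Of 24 genes of quiescence and of the DREAM complex, which represses cell cycle genes in resting cells, 1 rose, 1 fell and 22 did not pass (median -0.03). Over all genes 2.94% rose and 2.97% fell. Klf9, a Kruppel-like factor, rose by 0.67 (adjusted p = 0.0196 from limma). The study lists Klf9 among its own neural differentiation genes, chosen on these samples. Rbl1, a relative of the retinoblastoma protein that is itself made in cycling cells, fell with a difference of -1.27 (adjusted p = 0.0153). In the same arrays Bub1, Mki67, Top2a and Ccna2, genes of dividing cells, fell with differences of -2.52, -2.35, -2.27 and -2.22. Klf9 did not pass when replicate 2 or 3 of proliferation, or 1 or 2 of differentiation, was left out (adjusted p up to 0.107). Rbl1 did not pass when replicate 3 of proliferation, or 1 or 3 of differentiation, was left out (up to 0.0829). The list therefore had 0 calls when replicate 3 of proliferation or 1 of differentiation was missing, and 1 call when replicate 2 or 3 of differentiation was. It had 3 calls, 1 higher and 2 lower, when replicate 1 or replicate 2 of proliferation was missing. With limma-trend it had 4 calls, and over clusters with 1 symbol or at or above the median mean it had 5.

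**Figure D3:**
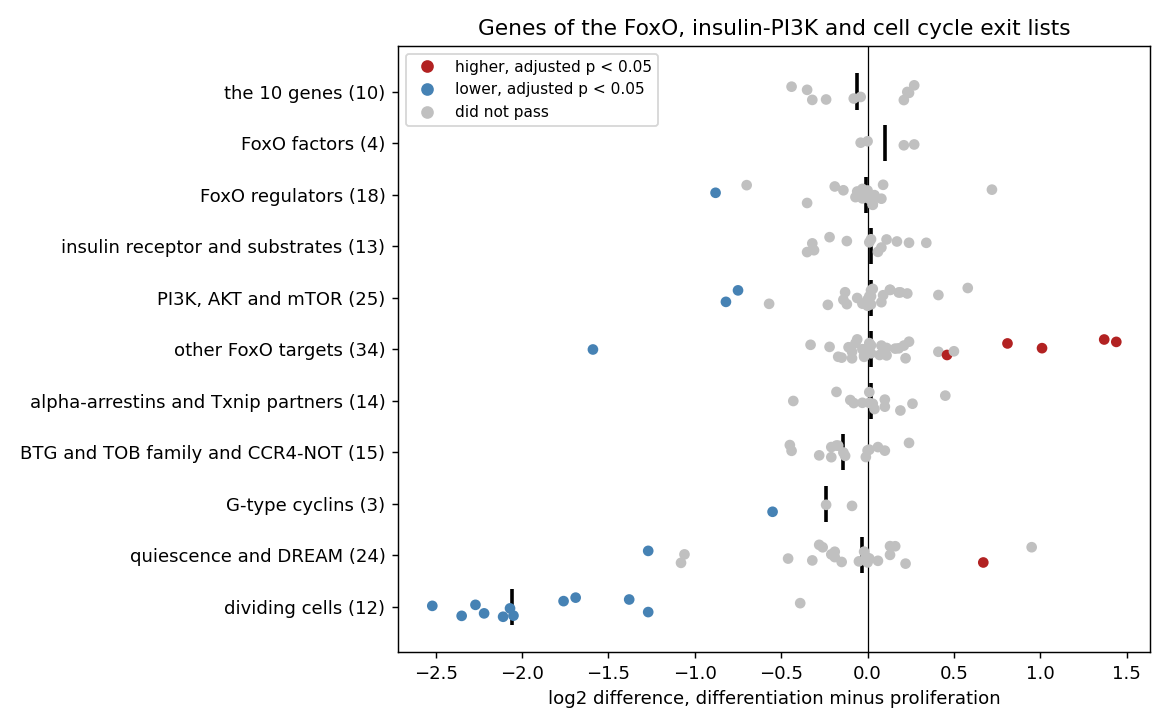
Each point is a gene, with the log2 difference (differentiation minus proliferation) along the x axis and the lists, each followed by its number of measured genes, down the y axis; scatter within a list has no meaning and black bars are medians. Red (higher) and blue (lower) genes passed limma's test at 0.05; the 10 genes are all grey, and the list of dividing cells has its median at -2.06.

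The calls of the 10 genes under all settings are shown together in the plot of adjusted p. With any array left out, 0 of the 10 passed. When limma estimated a weight for each array, 9 passed, all but Foxo3, with adjusted p between 0.00161 and 0.0496. The weights were 7.45 for differentiation replicate 1 and 3.62 for proliferation replicate 3, against 0.397 to 0.491 for the other 4 arrays, so this fit rested on 1 array in each group. It called 12721 of the 35556 clusters, where the fit without weights called 1459 (4.1%).

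**Figure D4:**
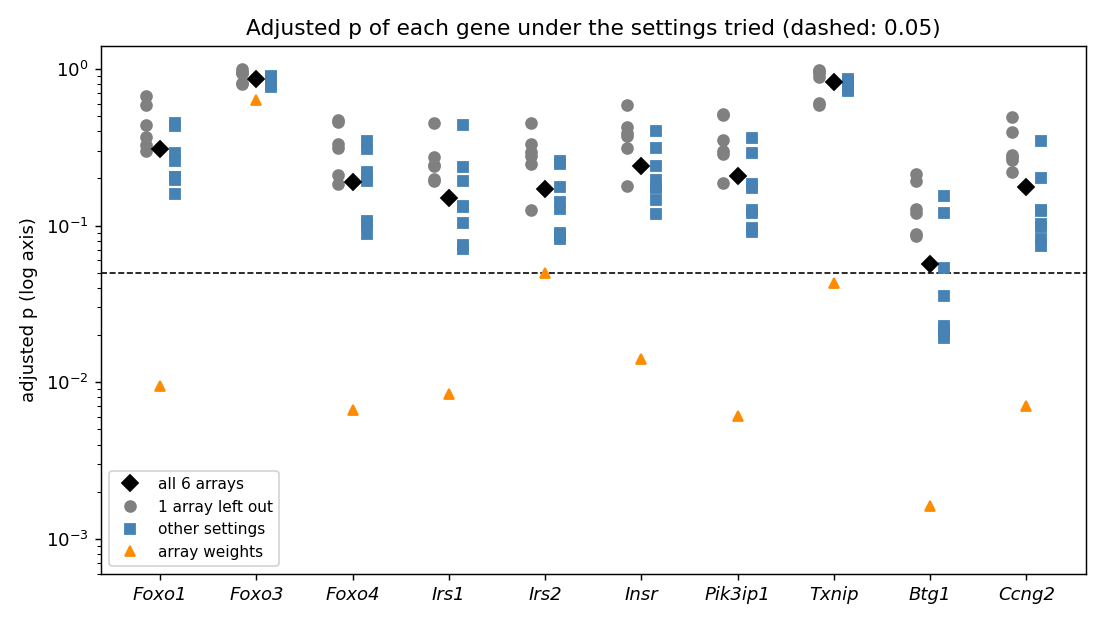
Adjusted p (vertical, log axis) of each gene (horizontal) with all 6 arrays (black diamonds), with 1 array left out (grey circles), with array weights (orange triangles) and under the other settings that give an adjusted p (blue squares); the dashed line is 0.05. Only Btg1 has squares below the line, and the triangle of every gene but Foxo3 is below it.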

How the data were processed

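Groups and replicate numbers came from the labels. The authors hybridised 1 GeneChip Mouse Gene 1.0 ST array per sample and normalized the arrays with RMA in Partek Software. The deposited values are log2 expression levels. RMA usually makes the distributions of the arrays equal, which would hide a shift of most transcripts. The genome build behind the values is not given in the sources used here. Symbols were taken from the platform annotation (21789 of 35556 clusters had 1 symbol), and for 21698 clusters the Entrez identifier was in a RefSeq table of GRCm38.p6, with 0 symbols updated. The comparison used lmFit and eBayes of limma 3.58.1 in R 4.3.3, two-sided, without a filter, and Benjamini-Hochberg adjustment covered every cluster. Calls needed an adjusted p under 0.05, and 95% intervals are from the moderated fit. The limma step alone was tried on simulated data with independent noise, which held no pairs and no differences in array quality. An exact permutation test of 3 arrays against 3 cannot give a two-sided p below 0.1. Arrays have no counts, so their number limits the precision. Python 3.11.15, pandas 2.3.3 and matplotlib 3.10.9 served for tables and plots.

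The members and lists were chosen with earlier results of these data known. The rule for names took the 10 genes, their other clusters and up to 4 called genes per pathway list with the largest change. Akt1, Akt2, Arrdc4, Tob1, Btg2, Cdkn1b, Sesn1, Sesn3, Bcl2l11, Nupr1, Bcl6, Rbl2, Klf2, Foxo6, Trib1 and Klf6 are named outside it. So are S100b, Smtn, Tubb3, Dpt, Ano1, Kit, Etv1 and the genes of the closing section. Genes of the lists that had no cluster to themselves are not reported here. The alternatives tried are named with their effects in the closing section.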

Additional observations from a re-analysis of the deposited data

How the results depend on the processing

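The direction of the difference was kept for 9 of the 10 genes under all 16 alternatives each, and for Foxo3 under all but array weights, where its difference was 0.04. The count of called members, 0, was 0 with any array left out, with the replicate number as a block, after cyclic loess and with either form of the methods' t-test. It was 1, Btg1, with limma-trend and robust estimation (adjusted p = 0.0191), after centring on array medians (0.0354), over clusters at or above the median mean, over clusters with 1 symbol and with clusters averaged per gene (0.0204), and 9 with array weights. The count of changed clusters, 1459, was 294 to 1297 with an array left out, 12721 with array weights and 253 with the methods' t-test after Benjamini-Hochberg. With the replicate number as a block it was 664, and the calls of the lists fell to 2 among the other FoxO targets, 0 for PI3K, AKT and mTOR and 0 for the G-type cyclins, while those of the other lists stayed the same in number. Deviations from the group means correlated by -0.00301, 0.0898 and -0.0742 over clusters between arrays of the same number. Each differentiation array correlated best with a proliferation array of another number (0.042, 0.122 and 0.157). With 3 arrays per group, whose deviations sum to 0, these correlations can neither show nor exclude pairs. As the labels tie no number to an experiment, the numbers were not taken as pairs. With the methods' t-test after Benjamini-Hochberg 3 of the other FoxO targets passed and 0 of any other list. The causes of these shifts were not tested. The settings that restrict the clusters changed which clusters entered the fit as well as their number. Array signal without detection calls leaves the levels of the dim clusters of Inpp4b, Pik3cg and the second cluster of Irs1 uncertain.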

Other observations

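Of the uncalled genes of the lists, 4 had an adjusted p no higher than that of Btg1, and they are named here in view of their values. Sgk1, a kinase that can phosphorylate FoxO much as AKT does, read 7.51, 7.46 and 7.65 in differentiation and 7.04, 6.50 and 6.92 in proliferation, a log2 difference of 0.72 (adjusted p = 0.0508 from limma). Gas1, a membrane protein first found in growth-arrested fibroblasts, read 10.16, 10.05 and 10.19 in differentiation and 8.80, 9.62 and 9.15 in proliferation, a difference of 0.95 (adjusted p = 0.0513). Eif4ebp1, which represses translation when mTOR is inactive, read 10.26, 10.20 and 10.40 in differentiation and 9.85, 9.88 and 9.90 in proliferation, a difference of 0.41 (adjusted p = 0.0513). Mxd3, a partner of Max that opposes Myc and is made in dividing cells, read 6.49, 6.23 and 6.83 in differentiation and 7.27, 8.05 and 7.48 in proliferation, a difference of -1.08 (adjusted p = 0.0569). The groups did not overlap in any of the 4 genes, with differentiation higher in Sgk1, Gas1 and Eif4ebp1 and lower in Mxd3. None passed in the comparison of all clusters. All 4 passed with limma-trend, with clusters averaged per gene and with array weights. They also passed over clusters at or above the median mean and over clusters with 1 symbol. Sgk1 passed after cyclic loess and without proliferation replicate 1 too, and Gas1 without proliferation replicate 2. Sgk1, Gas1 and Mxd3, but not Eif4ebp1, met the methods' criterion of an uncorrected t-test p under 0.05 with at least 1.5-fold.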
